A study of Mus musculus with 9 samples.

Results

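The genes described here are 10 targets and regulators of ATF4, the transcription factor at the centre of the integrated stress response: Atf4, Ddit3, Atf3, Nupr1, Ppp1r15a, Trib3, Chac1, Sesn2, Ddit4 and Adm2. They were taken by symbol from the 50813 deposited rows. The set was chosen by the measured levels of 3 of them: Adm2, Ppp1r15a and Atf3 separated WT cells from both CD47 KO clones in these same libraries. Values of either clone against WT are therefore given as a description, with no p-value. Their calls are set beside the share over all genes, and nothing is read from them. The comparison of clone E5 against clone E3 was no part of this rule of choice and was tested. Earlier results of these data were known when the set and the lists were chosen, so full independence of that test from the choice cannot be shown. The 10 symbols occupied 11 rows, because a second row named Ddit3 had 0 counts in every library, and the other 10 rows were among the 14593 genes that passed a filter on low counts.

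The data were 9 polyA RNA-seq libraries of LLC (Lewis lung carcinoma) cells, a mouse lung cancer line, grown in vitro in serum-containing medium. LLC cells of WT genotype gave 3 libraries, Cd47 KO clone E3 gave 3 and Cd47 KO clone E5 gave 3. The KO lines were made by electroporation of Cas9 complexed with a guide RNA against Cd47 and expansion of single cells, so each KO genotype was 1 clone and the effect of the edit cannot be told apart from differences between clones. The study's methods describe the 3 libraries of each genotype as independent biological replicates, so p-values measure the spread between replicates of a line and not between clones.

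The integrated stress response is a shared answer of mammalian cells to amino acid shortage, misfolded proteins in the endoplasmic reticulum, viral RNA, haem deficiency and mitochondrial damage. Each of these activates a kinase that phosphorylates the translation factor eIF2α. General translation then slows while the Atf4 mRNA is translated more, and ATF4, often as a dimer with a C/EBP protein, activates genes for amino acid supply, redox balance, feedback and, under lasting stress, cell death. Because ATF4 is controlled largely in translation, its mRNA is a poor guide to its protein, which was not measured here.

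ATF4 dimers recognise a composite element with a C/EBP and an ATF part, and the promoters below are shown because members that were low in both clones differ in whether they carry it. The core TGATGNAA was searched on both strands in a window from 250 bases before to 50 bases after each RefSeq start site of the GRCm38.p6 build. All 10 genes had a window, and 4 held the core: Atf3, Chac1, Nupr1 and Trib3. Over all 32851 windows the share was 3.97% (1304 windows). The first 3 of these genes carry the same letters, TTGCATCA, which is the core read from the opposite strand. They stand at bases -110 to -103 before the start in Atf3 and in Nupr1, and at bases -193 to -186 in Chac1. In Trib3 the letters TTACATCA stand at bases 15 to 22 after the start. A full cAMP response element, TGACGTCA, was found in Ppp1r15a alone, at bases -12 to -5, against 1.79% of all windows. Adm2, the gene with the lowest level relative to WT, held neither run of letters in this window, which says nothing of sites elsewhere. Coordinates are GRCm38.p6, sequences run 5′ to 3′ on the strand of the gene, and capitals mark the matches. The first 5 sequences are the 250 bases before the start, and that of Trib3 is the 30 bases around its match.
Atf3, chr1:191183334-191183583, minus strand: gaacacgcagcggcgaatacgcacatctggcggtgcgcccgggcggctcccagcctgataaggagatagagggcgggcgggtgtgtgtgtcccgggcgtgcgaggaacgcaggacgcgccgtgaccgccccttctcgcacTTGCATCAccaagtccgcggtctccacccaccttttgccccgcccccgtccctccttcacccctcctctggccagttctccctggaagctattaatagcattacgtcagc
Chac1, chr2:119350992-119351241, plus strand: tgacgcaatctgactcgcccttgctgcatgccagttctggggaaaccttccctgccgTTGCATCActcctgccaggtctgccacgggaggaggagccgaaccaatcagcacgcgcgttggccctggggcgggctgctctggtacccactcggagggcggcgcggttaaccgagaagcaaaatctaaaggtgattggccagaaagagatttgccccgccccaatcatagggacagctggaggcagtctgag
Nupr1, chr7:126625471-126625720, minus strand: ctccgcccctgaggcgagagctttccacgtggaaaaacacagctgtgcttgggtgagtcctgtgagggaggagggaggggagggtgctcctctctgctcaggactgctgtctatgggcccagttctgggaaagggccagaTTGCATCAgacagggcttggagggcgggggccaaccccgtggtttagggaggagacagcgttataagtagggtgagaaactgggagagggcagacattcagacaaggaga
Ppp1r15a, chr7:45526269-45526518, minus strand: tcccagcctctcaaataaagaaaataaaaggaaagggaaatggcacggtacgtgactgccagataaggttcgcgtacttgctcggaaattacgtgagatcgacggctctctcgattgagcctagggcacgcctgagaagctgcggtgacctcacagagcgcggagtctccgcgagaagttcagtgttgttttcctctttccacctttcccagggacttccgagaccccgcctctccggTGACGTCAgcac
Adm2, chr15:89322470-89322719, plus strand: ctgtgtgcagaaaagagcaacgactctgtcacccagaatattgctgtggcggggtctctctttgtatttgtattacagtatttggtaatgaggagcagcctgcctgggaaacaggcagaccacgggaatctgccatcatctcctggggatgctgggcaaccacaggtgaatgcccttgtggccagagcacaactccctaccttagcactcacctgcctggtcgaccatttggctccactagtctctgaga
Trib3, chr2:152344028-152344057, minus strand: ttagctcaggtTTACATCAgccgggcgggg
The core also occurred in promoters of other genes of the ATF4 programme, with shares that differed by list. A gene counted here if any of its windows held the core, so these are shares of genes, while the 3.97% is a share of windows. The core was held by 5 of the 10 genes matched from the list of tRNA synthetases and the tRNA exporter Xpot and 4 of the 13 amino acid synthesis enzymes. Amino acid transporters had it in 2 of 7 genes, secreted, survival and death targets in 2 of 12, and ATF4 partners and related bZIP factors in 1 of 9. Genes for eIF2, eIF2B and the eIF2α phosphatase had it in 1 of 8 and ATF6 and XBP1 branch targets in 1 of 15. It was in 0 of 8 paralogs of the members and 0 of 7 immediate early genes. None of the 6 matched genes for eIF2α kinases and their activators held it, too few to set against the 3.97% of all windows. A match is a run of letters and was not tested as a binding site.

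Total counts were 44257404 to 55095219 per library, and mitochondrial genes took 0.999% to 1.32% of them. Levels are given as CPM, counts scaled for library depth by the TMM method, and differences as log2 fold changes with their standard error from edgeR's quasi-likelihood fit to all 9 libraries. The targeted gene, Cd47, had 182 ± 3.92 CPM in WT cells, 44.6 ± 6.87 CPM in clone E3 and 17.4 ± 1.66 CPM in clone E5 (SD, n = 3). Vim, the mesenchymal marker of these cells, was at 4166, 5480 and 6571 CPM in the 3 lines. Defining genes of leukocytes and endothelium (Ptprc, Csf1r, Cd3e, Cd79a, Pecam1, Cdh5, Kdr, Tek) were at most at 0.18 CPM in any library. Epcam was at 0, while Cd68 was at 2.30 to 3.45 CPM. Replicate 3 of clone E3 stood apart from its line: its counts differed from those of the other 2 replicates with chi-square per degree of freedom of 187 and 224, against 4.71 to 37.9 for all other pairs. Values of clone E3 without that library are given in brackets beside those with it, or for several genes in a sentence of their own.

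The members ran from scarce to abundant. Levels per kilobase used the union of all annotated exons, from a GENCODE annotation of GRCm39 that may differ from the one used for counting. This union can be longer than the transcript that is expressed. On this scale Atf4 was at 303 ± 12.6 CPM per kb in WT cells (SD, n = 3). Trib3 followed at 94.2 ± 4.0 and Ppp1r15a at 60.9 ± 2.53. Sesn2 (43.0 ± 3.61) and Ddit4 (42.0 ± 1.80) did not differ beyond their spread, and neither did Atf3 (18.1 ± 2.05), Chac1 (17.4 ± 3.06) and Ddit3 (17.1 ± 1.22). Nupr1 (10.6 ± 0.686) and Adm2 (5.48 ± 0.123) were the lowest. Per kb, Atf4 stayed first and Adm2 last in both clones. Ddit4 moved from rank 5 to rank 2 in each, at 31.8 ± 6.86 CPM per kb in clone E3 and 61.8 ± 5.07 in clone E5. Ppp1r15a went from rank 3 to rank 6 in both. These ranks also depend on the exon lengths.

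**Figure D1:**
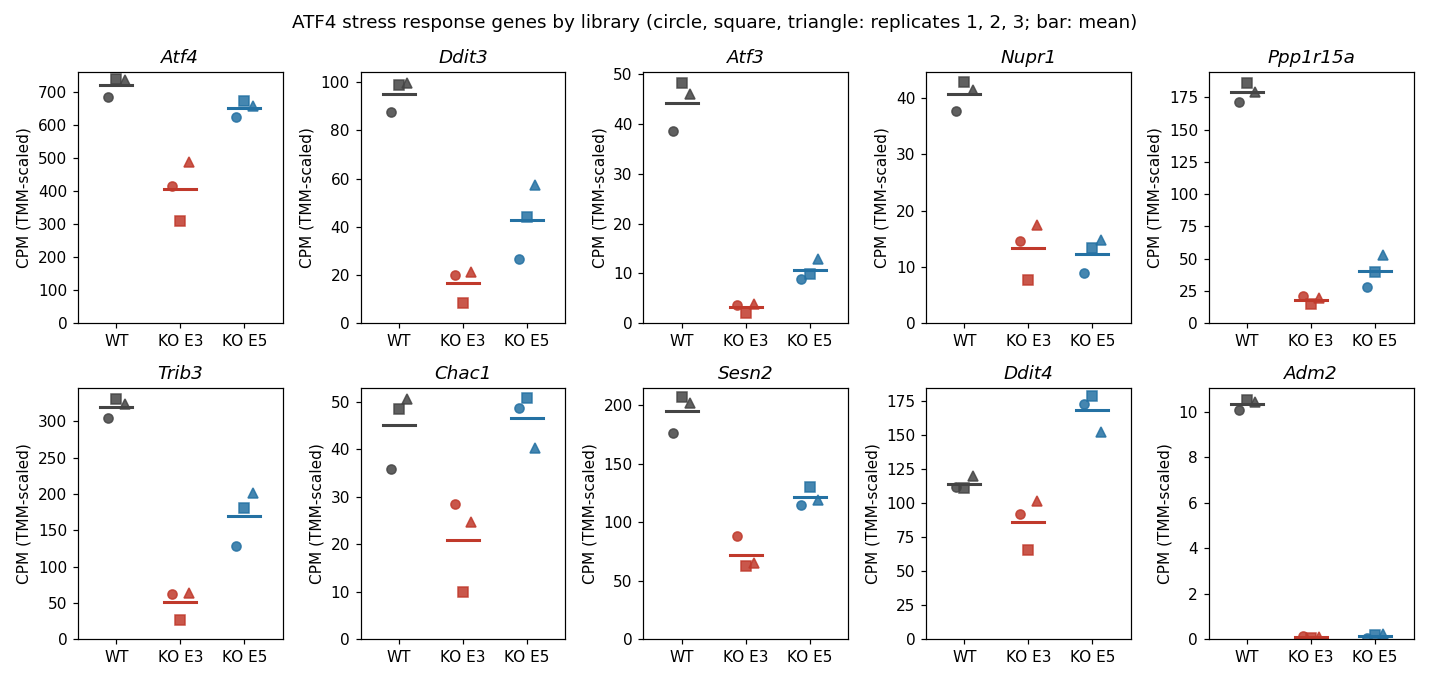
Levels of the 10 genes in each library. The y axis of each panel is CPM after TMM scaling and starts at 0, the x axis gives the line, points are the 3 replicates (circle, square and triangle for replicates 1, 2 and 3) and bars are means. All clone E3 points lie below all WT points in every panel, while clone E5 lies below WT in 8 panels, above it for Ddit4 and among it for Chac1.

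The 4 nuclear factors were lower than WT to very different extents. Atf4, the activator itself, read 685, 739 and 735 CPM in WT replicates 1, 2 and 3, 416, 309.7 and 488 CPM in those of clone E3, and 624, 670.5 and 657 CPM in those of clone E5. No E3 library reached the lowest WT or E5 library, and the E5 libraries lay just below those of WT. The log2 fold change against WT was -0.83 ± 0.15 in clone E3 (-0.99 without replicate 3) and -0.15 ± 0.15 in clone E5, about the size of its error. In bulk RNA, a lower level in every cell and fewer cells with the transcript cannot be told apart.

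Ddit3, which encodes the pro-apoptotic factor CHOP, was at 87.5, 98.8 and 99.8 CPM in WT cells, 20.2, 8.20 and 21.3 CPM in clone E3 and 26.7, 44.1 and 57.2 CPM in clone E5. The 3 lines did not overlap, and both clones were more spread than WT. Against WT, log2 fold changes were -2.53 ± 0.35 in clone E3 (-2.75 without replicate 3) and -1.16 ± 0.33 in clone E5. Atf3, a stress-induced factor of the same bZIP class that acts mainly as a repressor, was at 38.6, 48.2 and 45.9 CPM in WT cells, 3.64, 2.03 and 3.80 CPM in clone E3 and 8.92, 9.96 and 12.9 CPM in clone E5. Its libraries again fell into 3 separate ranges, with clone E3 at 7.14% of the WT mean and clone E5 at 23.95%. The log2 fold changes were -3.81 ± 0.24 (-3.96 without replicate 3 of clone E3) and -2.06 ± 0.22.

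Nupr1, a small stress-induced nuclear protein, was at 37.8, 42.9 and 41.4 CPM in WT cells, 14.7, 7.76 and 17.4 CPM in clone E3 and 8.88, 13.4 and 14.7 CPM in clone E5. Both clones were far below WT and overlapped each other, at 32.6% and 30.3% of the WT mean. The log2 fold changes were -1.62 ± 0.27 (-1.86 without replicate 3 of clone E3) and -1.72 ± 0.27.

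The feedback arm of the response was represented by Ppp1r15a, whose low level was among the 3 that chose the set, and by Trib3. Ppp1r15a encodes GADD34, the subunit that brings protein phosphatase to eIF2α and so ends the response. It was at 171, 186 and 179 CPM in WT cells, 20.8, 14.5 and 19.5 CPM in clone E3 and 27.9, 39.4 and 53.2 CPM in clone E5. Against WT, log2 fold changes were -3.29 ± 0.23 in clone E3 (-3.34 without replicate 3) and -2.15 ± 0.21 in clone E5, that is 9.80-fold and 4.45-fold lower than WT. Its constitutive paralog Ppp1r15b, which was not in the set, was at 187 ± 14.5, 186 ± 37.4 and 257 ± 15.2 CPM in WT, E3 and E5 (SD, n = 3), a log2 fold change of 0.46 ± 0.14 in clone E5 (edgeR quasi-likelihood test, adjusted p = 0.0451), a call that was lost on leaving out 7 of the 9 libraries in turn.

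Trib3, a pseudokinase that binds ATF4 and CHOP and limits their activity, was at 304, 330.3 and 323 CPM in WT cells, 62.2, 26.8 and 63.9 CPM in clone E3 and 129, 180.4 and 202 CPM in clone E5. The lines did not overlap, and clone E5 stood between WT and clone E3. Against WT, log2 fold changes were -2.65 ± 0.30 in clone E3 (-2.84 without replicate 3) and -0.91 ± 0.28 in clone E5.

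The 3 members that act on redox state and on mTORC1 went different ways in clone E5. Chac1 encodes an enzyme that degrades glutathione. It was at 35.9, 48.4 and 50.7 CPM in WT cells, 28.4, 9.87 and 24.7 CPM in clone E3 and 48.6, 50.8 and 40.2 CPM in clone E5. Clone E3 was below WT at a log2 fold change of -1.10 ± 0.31 (-1.23 without replicate 3), while clone E5 overlapped WT at 0.05 ± 0.31. Sesn2, a leucine sensor that restrains mTORC1, was at 176, 207 and 202 CPM in WT cells, 87.9, 62.9 and 65.5 CPM in clone E3 and 115, 129.8 and 119 CPM in clone E5. Its lines did not overlap, with log2 fold changes of -1.44 ± 0.14 (-1.37 without replicate 3 of clone E3) and -0.69 ± 0.14. The Sesn2 and Ddit3 loci overlap other annotated genes, and the strand setting of the counting is not given in the sources used here, so these 2 genes are less certain.

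Ddit4 encodes REDD1, another inhibitor of mTORC1, and was the exception in direction. It was at 112, 110.7 and 119.7 CPM in WT cells, 91.8, 65.6 and 102 CPM in clone E3 and 173, 178.5 and 152 CPM in clone E5. Every E3 library was below WT and every E5 library above it, at log2 fold changes of -0.40 ± 0.15 (-0.54 without replicate 3 of clone E3) and 0.56 ± 0.15.

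Adm2, which encodes the secreted peptide adrenomedullin 2 (intermedin) of the calcitonin family, was nearly lost from both clones. It had 503, 500 and 494 counts (10.1, 10.5 and 10.4 CPM) in WT cells, 7, 3 and 5 counts in clone E3 and 3, 8 and 13 counts in clone E5. The means were 10.3 ± 0.233 CPM in WT cells, 0.104 ± 0.0386 CPM in clone E3 and 0.160 ± 0.0887 CPM in clone E5 (SD, n = 3). On summed counts WT exceeded clone E3 98.4-fold (95% exact interval 59.5 to 176) and clone E5 63.1-fold (42.3 to 98.9), intervals that cover counting error only. The fitted log2 fold changes were -6.59 ± 0.30 (-6.62 without replicate 3 of clone E3) and -5.97 ± 0.28. The 10 nearest tested genes on chromosome 15 stood near WT levels, with a median log2 fold change of -0.10 in clone E3 (range -0.75 to 0.61) and 0.04 in clone E5 (-0.21 to 0.56). The low Adm2 values were thus not shared by the genes around it. For the other members such medians differed, from -0.57 (Ddit3) to 0.09 (Chac1) in clone E3. In clone E5 the lowest median was that of the Nupr1 neighbours, at -0.55 (range -1.73 to -0.0044).

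Counted together, all 10 genes had every E3 library below every WT library, a pattern shown by 23% of all genes tested, and 8 had every E5 library below WT, against 28.4%, while 1 had them above WT, against 27%. At an FDR under 0.05, 9 members were lower in clone E3 and 0 higher, where 30.5% of all genes were called (14.7% lower). In clone E5 7 were lower and 1, Ddit4, was higher, where 20.6% of all genes were called (11.7% lower and 8.96% higher). These counts follow from the choice of the set, and nothing is read from them. The median log2 fold change of the members was -2.07 in clone E3 and -1.03 in clone E5, against 0.01 and -0.0023 over all genes tested. Both comparisons share the WT libraries. Leaving out replicate 3 of clone E3 gave 10 and 8 called members, and leaving out any WT library, or replicate 1 or 2 of clone E5, gave 5 in clone E5, since Ddit3, Trib3 and Ddit4 then missed the threshold.

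**Figure D2:**
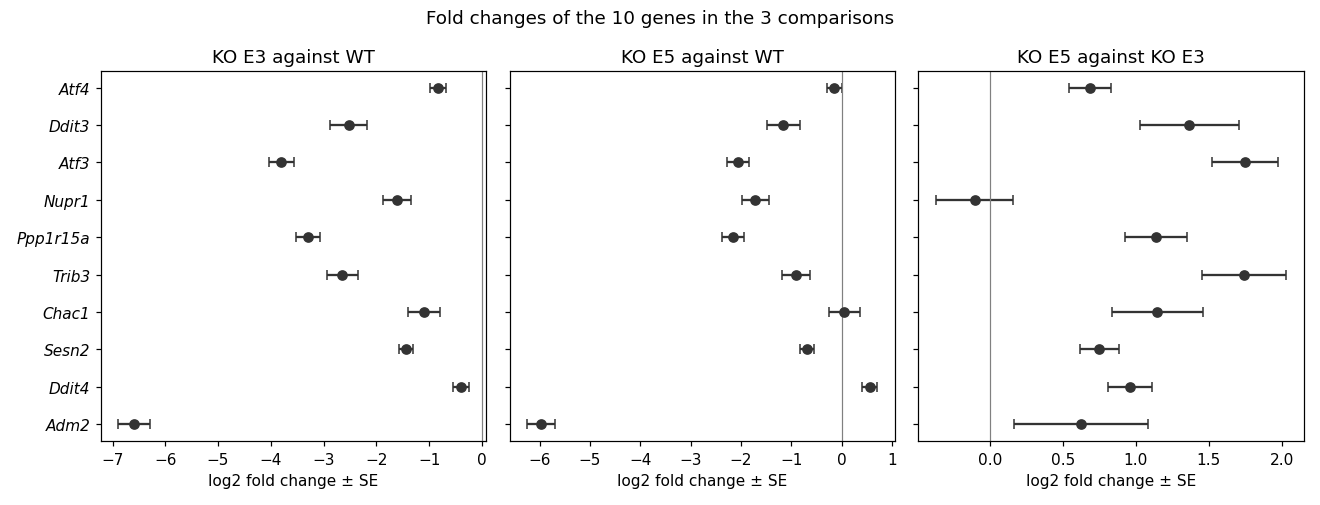
Log2 fold changes of the 10 genes in the 3 comparisons, from edgeR. Points are fitted log2 fold changes on the x axis, bars are standard errors, rows are genes, and the x axes differ in range. Values against WT run from -6.59 (Adm2) to -0.40 (Ddit4) in clone E3 and from -5.97 (Adm2) to 0.56 (Ddit4) in clone E5, and 9 of the 10 values of E5 against E3 are above 0.

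The direct comparison of the clones asks whether 2 lines edited in the same gene hold these transcripts at the same level. They did not: 8 of the 10 members were higher in clone E5 than in clone E3 and 0 were lower, where 31.9% of all genes were called and 14.7% were called higher. In edgeR's quasi-likelihood test, adjusted over all genes by Benjamini-Hochberg, Atf3 was 3.36-fold higher (log2 fold change 1.75 ± 0.23, adjusted p = 0.000276) and Trib3 3.34-fold higher (1.74 ± 0.29, adjusted p = 0.00125). Ddit3 was 2.58-fold higher (1.37 ± 0.34, adjusted p = 0.0118), Chac1 2.21-fold (1.15 ± 0.31, adjusted p = 0.0179) and Ppp1r15a 2.20-fold (1.14 ± 0.21, adjusted p = 0.00247). Smaller differences were found for Ddit4 (0.96 ± 0.15, adjusted p = 0.000857), Sesn2 (0.75 ± 0.14, adjusted p = 0.00214) and Atf4 (0.69 ± 0.15, adjusted p = 0.00534). In each of these 8 genes all 3 E5 libraries exceeded all 3 E3 libraries, as they did in 21.8% of all genes tested.

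Adm2 and Nupr1, the 2 members whose E3 and E5 libraries overlapped, did not pass. Their log2 fold changes of E5 against E3 were 0.62 ± 0.46 (adjusted p = 0.334) and -0.11 ± 0.27 (adjusted p = 0.792), which does not show that their levels were equal. Without replicate 3 of clone E3 the same 8 genes were called, with log2 fold changes from 0.69 (Sesn2) to 1.94 (Trib3), and the value for Nupr1 changed sign to 0.15 (adjusted p = 0.653). The Chac1 difference missed the threshold without replicate 1 or 2 of clone E5 (adjusted p = 0.0512 and 0.0577), and that of Ddit3 without its replicate 3 (adjusted p = 0.0524).

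The replicates of a clone differed in these genes more than in most. Among genes with a mean of at least 1 CPM (11700 genes), the median coefficient of variation in WT cells was 4.98% over all genes and 5.37% over the members. In clone E3 it was 17.2% over all genes and 34% over the members, and in clone E5 it was 6.32% and 20.8%. All 10 members exceeded the median of all genes in clone E3, 9 did in clone E5 and 5 did in WT cells. The members moved together between libraries: replicate 2 of clone E3 was the lowest of its line in all 10, as it was in 32.4% of all genes, and replicate 1 of clone E5 was the lowest in 8, as in 37.7% of all genes. Its replicate 3 was the lowest in Chac1 and Ddit4. Replicate 3 of clone E3, the library with the largest count differences, was the lowest of its line in 0 members and in 44.9% of all genes.

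**Figure D3:**
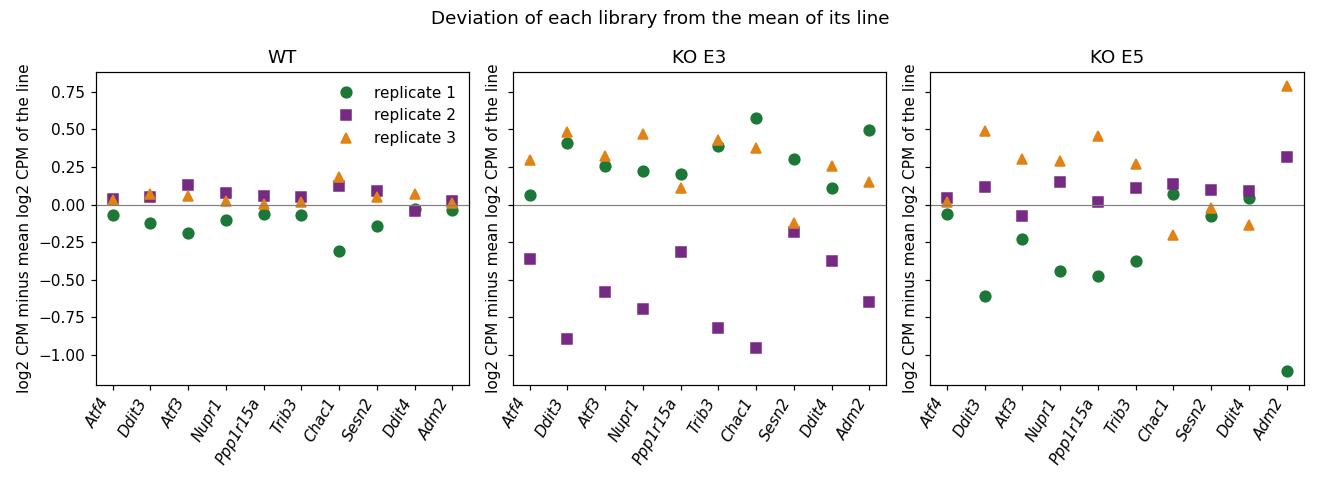
Deviation of each library from the mean of its line, for the 10 genes. The y axis is log2 CPM minus the mean log2 CPM of the line, the x axis gives the genes, and symbols mark replicates 1, 2 and 3 in each line. WT points stay close to 0, the squares of clone E3 (replicate 2) lie lowest in all 10 genes, and the circles of clone E5 (replicate 1) lie lowest in 8.

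Over all 9 libraries, the genes outside the set whose log2 CPM followed each member most closely were Anks3 for Atf4 (Pearson r = 0.981), Dqx1 for Atf3 (0.990), Vegfa for Ddit3 (0.989), Cyb561 for Nupr1 (0.998), Stard5 for Ppp1r15a (0.996), Tor3a for Trib3 (0.991), Ap5z1 for Chac1 (0.975), Mex3d for Sesn2 (0.994), Ribc1 for Ddit4 (0.981) and Rnf103 for Adm2 (0.997). They were the best of 10417 genes each, and the 9 points fall into 3 lines, so these values mostly describe the difference between lines. No gene was the closest to more than 1 member.

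The lists of related genes that follow are read against the share of all genes called by edgeR at an FDR under 0.05, which was 30.5% in clone E3 and 20.6% in clone E5, or 43.2% and 42% without replicate 3 of clone E3. Upstream of the members, the kinases that start the response and their activators had 1 of 8 genes called in clone E3 (12.5%) and 0 in clone E5, where 0 also passed at an unadjusted p under 0.05 and 0 by DESeq2. Leaving out replicate 3 of clone E3 gave 5 (4 higher and 1 lower) and 2. Eif2ak1, the haem-regulated kinase HRI, had a log2 fold change of 0.32 ± 0.10 in clone E3 (adjusted p = 0.0335) and -0.05 ± 0.10 in clone E5, and its call was lost on leaving out any library but replicate 3 of clone E3 (0.40 without that one).

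Eif2ak2, which encodes PKR, the kinase that senses double-stranded RNA, was at 35.9, 36.4 and 41.0 CPM in WT cells, 60.4, 70.0 and 35.3 CPM in clone E3 and 47.6, 44.2 and 41.4 CPM in clone E5. Replicates 1 and 2 of clone E3 were above all other libraries, while its replicate 3 was the lowest of all. The log2 fold change in clone E3 was 0.55 ± 0.20, not called by edgeR (adjusted p = 0.0650) but called by DESeq2 (adjusted p = 0.0390), with upper-quartile scaling, without the filter on low counts, and without replicate 3, where it was 0.79 (edgeR adjusted p = 3.07e-05). Eif2ak3 (PERK, of the endoplasmic reticulum) and Eif2ak4 (GCN2, which senses uncharged tRNA) were at 0.22 ± 0.15 and 0.12 ± 0.18, not called, and without replicate 3 at 0.33 and 0.34, both called (adjusted p = 0.0415 and 0.00243). In clone E5 the values of Eif2ak2, Eif2ak3 and Eif2ak4 were 0.23 ± 0.20, -0.27 ± 0.15 and 0.10 ± 0.18, of which the first and second were called when clone E5 and WT were fitted alone (adjusted p = 0.0183 and 0.00504), and Eif2ak2 also without replicate 3 of clone E3 (adjusted p = 0.0328). Kinase activity lies in phosphorylation and was not measured here.

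Of 10 genes for eIF2, its exchange factor eIF2B, the phosphatase and the separate initiation factor eIF2A, 2 were called in each clone (20%). Clone E3 had 2 lower, Eif2b3 (-0.83 ± 0.10, and -0.91 without replicate 3) and Eif2s3x (-0.80 ± 0.20, and -0.56), and clone E5 had 2 higher, Eif2a (0.42 ± 0.10) and Ppp1r15b. Eif2a encodes eIF2A, which is not eIF2α. The gene for eIF2α, Eif2s1, was not called by edgeR in clone E5 (0.31 ± 0.10, adjusted p = 0.0536). The Eif2a call was lost without WT replicate 2 or 3 or E5 replicate 3. Leaving out replicate 3 of clone E3 gave 4 lower and 0 higher in clone E3, where 43.2% of all genes were called. It gave 3 lower and 5 higher in clone E5, where 42% were.

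Among 10 tested partners of ATF4 and related bZIP factors, each clone had 4 lower and 1 higher (50%). Nfe2l1, a factor for proteasome genes, was at -1.40 ± 0.13 on the log2 scale in clone E3 and at -0.65 ± 0.13 in clone E5, Cebpd at -1.58 ± 0.23 and -1.37 ± 0.22, and Cebpg, a dimer partner of ATF4, at -0.94 ± 0.12 and -0.38 ± 0.12, whereas Cebpa was higher at 0.79 ± 0.14 and 0.76 ± 0.14. Without replicate 3 of clone E3 its values for these 4 genes were -1.31, -1.90, -0.94 and 0.66. The Cebpg call in clone E5 was lost without any WT library or without E5 replicate 1 or 2.

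The metabolic targets of ATF4 were mostly called lower in clone E3. Of 15 amino acid synthesis and one-carbon enzymes 13 were lower and 1 was higher (93.3% called), with a median log2 fold change of -1.25, and without replicate 3 the counts were 13 and 1 with a median of -1.21. Cth, which makes cysteine, was at 129 ± 8.62 CPM in WT cells, 17.3 ± 1.33 CPM in clone E3 and 91.8 ± 35.8 CPM in clone E5 (SD, n = 3). It was at -2.90 ± 0.26 in clone E3 (-2.91 without replicate 3) and, not called, at -0.49 ± 0.24 in clone E5. Aldh1l2, a mitochondrial folate enzyme, was at -2.13 ± 0.35 in clone E3 (-1.82) and, not called, at -0.50 ± 0.33 in clone E5. Cbs, the enzyme before Cth in the same pathway, was scarce, with 45, 30 and 34 counts in WT cells. It had 81, 96 and 116 counts in clone E3 and 9, 8 and 12 counts in clone E5. At these few counts it rose in clone E3 (1.46 ± 0.23, and 1.27 without replicate 3) and fell in clone E5 (-1.91 ± 0.30).

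Of 11 amino acid transporters 9 were lower and 0 higher in clone E3 (81.8% called, median -1.22). Of 16 genes in the list of aminoacyl-tRNA synthetases, which charge tRNAs, together with the tRNA exporter Xpot, 13 were lower and 0 higher there (81.2% called, median -0.87). Without replicate 3 of clone E3 these counts were 10 and 1 for the transporters (median -0.97) and 13 and 0 for the tRNA list (median -0.80). In clone E5 against WT the called shares were near that of all genes for the tRNA list (18.8%, 2 lower and 1 higher, median -0.06) and the synthesis enzymes (20%, 3 lower and 0 higher, median -0.17), and 36.4% for the transporters (3 lower and 1 higher, median -0.28).

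The cationic amino acid transporter Slc7a3 was low in both clones, with 46.9 ± 1.09 CPM in WT cells, 0.901 ± 0.0833 CPM in clone E3 and 1.25 ± 0.170 CPM in clone E5 (SD, n = 3). Its log2 fold changes were -5.70 ± 0.14 (-5.63 without replicate 3 of clone E3) and -5.22 ± 0.13. Wars1, the tryptophan enzyme, was lower in both clones (-1.72 ± 0.14, or -1.68 without replicate 3, and -0.80 ± 0.14). Slc7a5, the large neutral amino acid transporter, was lower in clone E3 (-1.59 ± 0.17, and -1.50 without replicate 3) and not called in clone E5 (-0.47 ± 0.16).

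Of 15 secreted, survival and death targets, 8 were lower and 1 higher in clone E3 (60% called), and clone E5 had 3 lower and 1 higher (26.7%). Gdf15, a secreted stress cytokine, had 129, 117 and 105 counts in WT cells, 8, 2 and 3 counts in clone E3 and 53, 117 and 132 counts in clone E5. It fell in clone E3, at a log2 fold change of -4.70 ± 0.45 that rests on these few counts and was -5.42 without replicate 1 and -4.53 without replicate 3, and was at -0.24 ± 0.30 in clone E5. Fgf21, a stress hormone, fell in clone E3 (-2.62 ± 0.50, and -2.82 without replicate 3). Stc2, a secreted glycoprotein, rose in clone E5 (2.61 ± 0.19) and Pmaip1, the pro-apoptotic NOXA, in clone E3 (1.48 ± 0.15, and 1.50 without replicate 3), each not called in the other clone (-0.21 ± 0.20 and 0.05 ± 0.15).

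Paralogs of the members moved in both directions. Clone E3 had 1 of 9 lower (Atf5) and 5 higher (66.7% called), while clone E5 had 2 lower (Sesn3 and Adm) and 1 higher (Ppp1r15b, 33.3% in all). Sesn3, a relative of Sesn2, had 345, 267 and 282 counts in WT cells, 954, 786 and 374 counts in clone E3 and 0 counts in all 3 E5 libraries, where up to 3 counts per library would have been compatible with a count of 0. Its log2 fold change in clone E3 was 1.25 ± 0.28 (1.53 without replicate 3), a call lost without WT replicate 2. Sesn1 (0.38 ± 0.13) and Chac2 (0.48 ± 0.14) were higher in clone E3, and Atf5, which ATF4 activates, fell there (-1.20 ± 0.20). Without replicate 3 these values were 0.36, 0.32 and -1.28. The Sesn1 call was lost on leaving out 6 of the 9 libraries in turn and that of Chac2 without any WT library. Atf5 and Ppp1r15b also stand in the lists above.

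Genes of the other branches of the unfolded protein response, those of ATF6 and XBP1, were called mainly higher in clone E3 and mainly lower in clone E5. The list held the sensors Atf6 and Ern1 as well as targets, and both sensors were called lower in clone E3 (Atf6 at -1.01 ± 0.23). Of 18 such genes 8 were higher and 3 lower in clone E3 (median log2 fold change 0.19), where 15.7% of all genes were called higher, and clone E5 had 6 lower and 0 higher (33.3% called, median -0.19). Without replicate 3 of clone E3 the counts were 8 higher and 3 lower (median 0.13), and 1 higher and 8 lower in clone E5. The chaperone cofactor Sdf2l1 (0.89 ± 0.20, and 0.66 without replicate 3) and the disulfide isomerase Pdia6 (0.66 ± 0.14, and 0.48) rose in clone E3. The sensor Ern1 fell in clone E3 (-1.30 ± 0.21, and -1.06) and in clone E5 (-0.73 ± 0.21), where its call was lost without any WT library or without E5 replicate 1 or 2.

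In clone E5 against clone E3, 12 of these 18 genes were lower and 0 higher, against 17.2% of all genes called lower. By contrast 14 of 15 synthesis enzymes, 14 of the 16 genes of the tRNA list and 8 of 11 transporters were higher in clone E5, against 14.7% of all genes. Without replicate 3 of clone E3 these counts were 12 lower and 2 higher, and 14, 15 and 9 higher.

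The immediate early genes, which share inducers with Atf3, had 5 of 11 lower and 1 higher in clone E3 (54.5% called), and 3 lower and 1 higher in clone E5 (36.4%). Egr1, a growth factor response gene, had 1216, 1105 and 1241 counts in WT cells, 81, 22 and 35 counts in clone E3 and 79, 71 and 52 counts in clone E5. It fell in both clones, at -4.68 ± 0.35 in clone E3 (-5.32 without replicate 1 and -4.54 without replicate 3) and -4.14 ± 0.34 in clone E5. Myc fell in clone E3 (-1.49 ± 0.13, and -1.56 without replicate 3) and was at 0.17 ± 0.12 in clone E5, and Fosl1 rose in clone E5 (0.56 ± 0.11).

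Over all 121 tested genes of these 10 lists, 75 (62%) were called in clone E3, 57 of them lower, 33 (27.3%) in clone E5, 26 of them lower, and 82 (67.8%) between the clones, 57 of them higher in clone E5. The shares of all genes tested were 30.5%, 20.6% and 31.9%. When replicate 3 of clone E3 was left out, 87, 59 and 98 of 122 genes were called, against 43.2%, 42% and 44.1% of all genes. The count in clone E5 rested on single libraries: it was also 20, 18 and 19 without WT replicates 1, 2 and 3, and 18 and 21 without replicates 1 and 2 of clone E5.

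**Figure D4:**
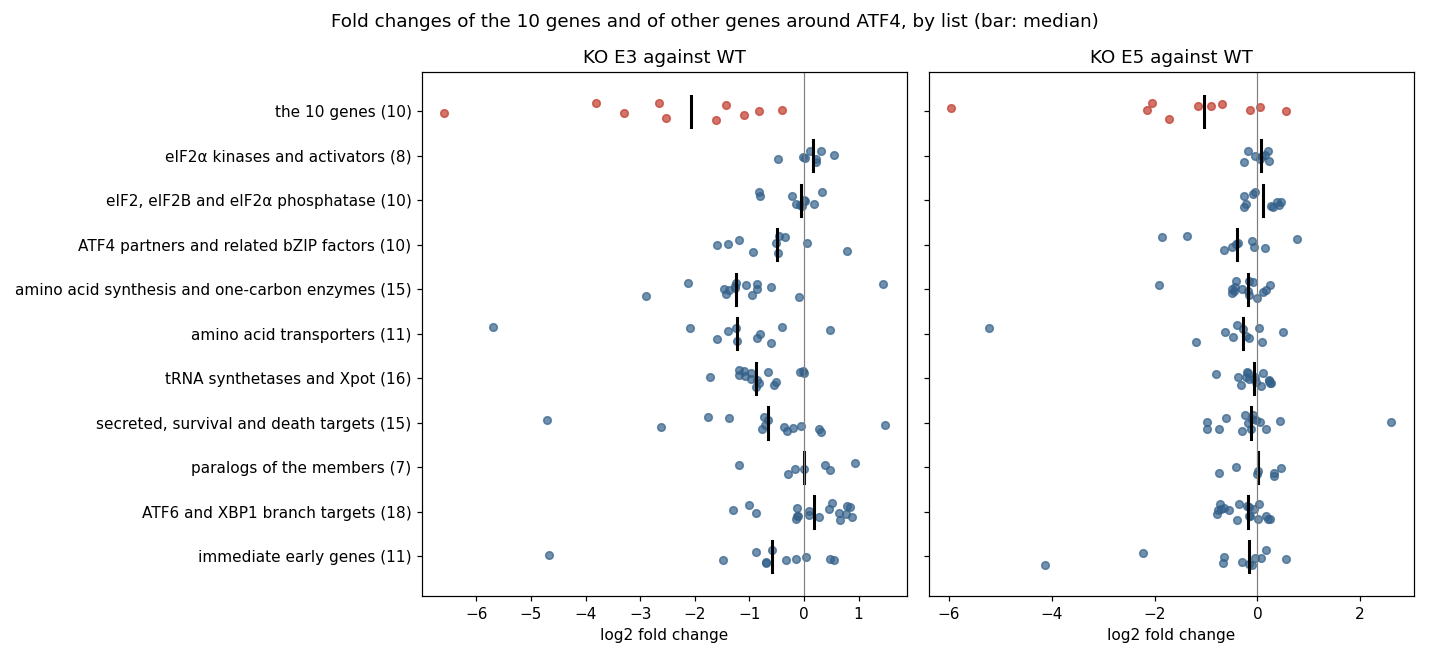
Log2 fold changes of the 10 genes and of the 10 lists of related genes in each clone against WT. Each point is a gene, the x axis is the log2 fold change from edgeR (ranges differ), black bars are medians, and numbers in brackets count the genes drawn, without Sesn3 and Ddit4l, which had at most 3 counts in every library of 1 line or more. Amino acid synthesis enzymes, transporters and genes of the tRNA list lie mostly below 0 in clone E3 and nearer to 0 in clone E5, while most genes in the list of ATF6 and XBP1 branch targets, which includes the sensors Atf6 and Ern1, lie above 0 in clone E3.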

How the data were processed

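The 9 RNA-seq libraries were grouped by the labels, 3 each for WT cells, clone E3 and clone E5. The authors used FastQC, Trimmomatic and STAR with the GRCm39 build, and the deposited values are raw counts for each gene and library. Which counter, strand option and annotation release were used is not given in the sources used here.

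From these counts, edgeR (version 4.0.16, R 4.3.3) gave the quasi-likelihood test on TMM-scaled values. The filter on low counts was filterByExpr, set to a minimum count of 10 and a total of 15. The 3 lines were fitted together, with calls at an FDR under 0.05 after Benjamini-Hochberg adjustment. A standard error is the size of the log2 fold change divided by the root of its F statistic. The common biological coefficient of variation was 14.8%, and at this depth counting error is small above a few CPM. The script was tested on simulated data.

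The members and lists were chosen with earlier results of these data known. Named genes are the members, Cd47, the eIF2α kinases, Ppp1r15b, the closest gene to each member and, per list, up to 4 called genes (the 2 lowest and 2 highest by the mean of both log2 fold changes, average log2 CPM above 0). Not all of these are described. Other names were chosen after their values were seen. Promoters are RefSeq windows of GRCm38.p6, matched by symbol for all 10 members. Exon lengths matched by gene ID.

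Alternatives were DESeq2 (version 1.42.0), edgeR with DESeq2's size factors or with upper-quartile scaling, other filters (none, or at least 10 counts in all libraries), a fit of only the 2 lines compared, a replicate block, and each library left out.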

Additional observations from a re-analysis of the deposited data

Results flagged for a closer look

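The difference between the clones, which is also the difference between their contrasts with WT, passed edgeR's quasi-likelihood test for 8 members. The log2 fold changes of clone E5 against clone E3 were 1.75 for Atf3, 1.74 for Trib3, 1.37 for Ddit3, 1.15 for Chac1, 1.14 for Ppp1r15a, 0.96 for Ddit4, 0.75 for Sesn2 and 0.69 for Atf4. Only for Ddit4 did the libraries of the clones lie on opposite sides of WT, with 3 of 3 below it in clone E3 and 3 of 3 above it in clone E5. No cause of these differences was tested, and clone and edit cannot be told apart.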

How the results depend on the processing

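Called members numbered 8 to 10 in clone E3 against WT, 6 to 8 in clone E5 against WT and 8 between the clones under DESeq2, its size factors in edgeR, upper-quartile scaling, both filters, only the 2 lines compared and the replicate block. The filter of at least 10 counts in every library removed Adm2. Leaving out 1 library gave 8 to 10, 5 to 8 and 7 to 8. The counts against WT again follow from the choice of the set. In clone E5 against WT, the calls that were lost were those of Trib3, Ddit3 and Ddit4, and in clone E3 that of Chac1, while Ddit4 gained a call there under DESeq2, without the filter and without replicate 3 of clone E3. Pathway genes called in that comparison numbered 62 with only the 2 lines compared, 21 with the replicate block, and 18 to 59 with 1 library left out, against 33. Over all genes, the calls in that comparison were 6596 with only the 2 lines compared and 6246 without replicate 3 of clone E3, against 3012, and 1953, 1767, 1924, 1915 and 1830 without WT replicates 1, 2 and 3 and replicates 1 and 2 of clone E5. In clone E3 against WT they were 2875 without WT replicate 2, against 4445. The cause of these shifts was not tested. Same-numbered libraries had correlations of deviations from -0.172 to 0.0472, and libraries with different numbers from -0.161 to 0.183. These values show no pairing by number, but they cannot exclude that same-numbered libraries were handled together. The replicate block changed 1 member's call, that of Trib3 in clone E5 against WT, which was lost.

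Signs changed for named genes with values near 0. Ppp1r15b in clone E3 was at 0.0664 with upper-quartile scaling, 0.0083 with at least 10 counts in every library and 0.0046 with only the 2 lines compared, and Kars1 in clone E3 was at -0.0096 without the filter. With 1 library left out, the ranges that crossed 0 were, in clone E3, -0.132 to 0.148 for Ppp1r15b, -0.0235 to 0.0203 for Kars1, -0.0159 to 0.0838 for Fosl1 and -0.0209 to 0.335 for Eif2ak4. In clone E5 they were -0.0934 to 0.144 for Chac1, -0.0067 to 0.150 for Pmaip1 and -0.428 to 0.0346 for Gdf15, and between the clones -0.156 to 0.0291 for Sesn1, -0.233 to 0.114 for Eif2ak4, -0.378 to 0.145 for Nupr1, -0.116 to 0.115 for Cebpa and -0.258 to 0.0107 for Chac2.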
